A study of Rattus norvegicus with 6 samples.

Results

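The cell cycle and proliferation genes are a list of 50 genes whose products copy the chromosomes, drive the cell through the S, G2 and M phases and divide it. They were followed in hippocampal mRNA of adult male Sprague Dawley rats. The AD group (3 arrays) received Aβ1-42 oligomers, aggregates of the amyloid peptide, by injection into the cerebral ventricles. The Sham group (3 arrays) received the vehicle by the same route. The model is an acute injection of peptide and carries no transgene, and the time between injection and dissection is not given in the sources used here. Each sample was hybridised to 1 single-colour Agilent rat gene expression array. Nothing in the labels says which animal a sample came from, so p-values measure the spread between these samples.

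A probe belonged to a member where its accession matched the gene in RefSeq, and where a gene had several probes the one with the highest mean signal over the 6 arrays was read. Of the 50 members, out of 15168 named genes on the array, 44 had a matched probe. The other 6 were Mki67, Top2a, Mcm5, Bub1b, Plk4 and Melk, so the standard proliferation mark Mki67 was not analysed here, nor was Top2a, the topoisomerase that untangles replicated DNA. The mean signal that chose the probe is a description and was not tested. The comparison of AD with Sham was not used in choosing the probe.

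In dividing cells these genes act in sequence. Licensing factors load the MCM helicase onto replication origins, cyclin E with Cdk2 and then cyclin A start and carry DNA synthesis, and cyclin B with Cdk1 brings the cell into mitosis, where kinases, kinesins and the anaphase-promoting complex separate the chromosomes. E2F factors switch on the S phase genes, and the MuvB complex with B-Myb and FoxM1 switches on those of G2 and mitosis. Most cells of the adult hippocampus are neurons that no longer divide. Division continues in neural stem and progenitor cells of the dentate gyrus and in oligodendrocyte precursors, and microglia, endothelial cells and infiltrating blood cells can divide as well.

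Promoters of members that passed the test are printed because many members are known to share 3 short elements there. CCAAT is the box read by NF-Y. The cell cycle homology region read by MuvB was searched as TTTGAA and, in its other common form, as TTTAAA. The E2F site was searched as TTCCCGC, in a further core form as TTTCGCG and in the last form as TTTGGCG. Capitals mark any of these letters on either strand, so ATTGG is the NF-Y box and TTCAAA the homology region read on the opposite strand. The form TTTAAA is its own reverse complement, and in Mcm2 the 2 matches to TTTCGCG, 1 on each strand, overlap. Each line gives the 150 bases before the RefSeq start of the gene in the build GRCr8, 5′ to 3′ on the gene's strand. The positions are chr4:159321053-159321202, plus strand for Cdca3, chr10:103571996-103572145, plus strand for Birc5, chr17:13727520-13727669, minus strand for Cks2, chr1:244536717-244536866, plus strand for Kif11, chr1:99927910-99928059, minus strand for Ccne1 and chr4:122918095-122918244, minus strand for Mcm2. The first 5 genes were lower in AD and Mcm2 was higher.
Cdca3: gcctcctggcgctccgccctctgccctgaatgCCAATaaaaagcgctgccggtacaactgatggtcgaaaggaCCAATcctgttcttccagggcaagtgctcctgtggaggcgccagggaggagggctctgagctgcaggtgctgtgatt
Birc5: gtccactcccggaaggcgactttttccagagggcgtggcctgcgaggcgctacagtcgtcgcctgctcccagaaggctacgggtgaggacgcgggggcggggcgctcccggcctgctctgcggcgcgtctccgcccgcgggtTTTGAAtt
Cks2: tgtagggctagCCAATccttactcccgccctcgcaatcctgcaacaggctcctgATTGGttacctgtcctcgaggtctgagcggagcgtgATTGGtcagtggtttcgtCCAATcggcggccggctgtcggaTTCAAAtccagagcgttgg
Kif11: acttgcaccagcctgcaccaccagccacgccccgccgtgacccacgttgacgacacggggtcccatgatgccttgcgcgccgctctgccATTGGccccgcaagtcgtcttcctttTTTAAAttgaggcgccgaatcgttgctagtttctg
Ccne1: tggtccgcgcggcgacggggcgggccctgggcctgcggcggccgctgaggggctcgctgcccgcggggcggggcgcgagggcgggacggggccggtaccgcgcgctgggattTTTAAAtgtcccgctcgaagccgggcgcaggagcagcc
Mcm2: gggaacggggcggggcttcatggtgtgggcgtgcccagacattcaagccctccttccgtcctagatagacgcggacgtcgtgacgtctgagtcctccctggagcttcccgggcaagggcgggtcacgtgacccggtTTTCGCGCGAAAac
Cks2 held 4 matches to the NF-Y box and 1 to the homology region within these bases. Cdca3 held 2 matches to the NF-Y box, and Kif11 held 1 match to it beside 1 to the homology region. Over the full window of 250 bases before to 50 after the start, the NF-Y box was found in 29 of the 40 member promoters in the RefSeq table (72.5%), against 37.7% of all 27457 promoters. Either form of the homology region was found in 27 of 40 (67.5%), against 27.9% of all promoters. One of the 3 E2F forms was found in 15 of 40 (37.5%), against 6.58% of all promoters. Among the 5 members that fell and had a promoter in the table, 4 held the NF-Y box, 4 held a homology region and 0 held an E2F form. Ccna2, Rrm2 and Mcm4 also fell but had no promoter in the table, so these counts leave them out. Among the 23 tested members with a promoter that did not pass, 17 held the NF-Y box, 15 held a homology region and 10 held an E2F form. A match describes the letters in the window only, and the difference between these groups was not tested.

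Most members were measurable in this tissue. Levels are log2 processed signals minus the 75th percentile of the same array, so that 0 is the 75th percentile of that array. Of the 44 members with a probe, 31 were well above background on all 6 arrays by the scanner's own flag. Cdca8, Nek2, Tpx2, Cenpf and Cenpa were well above background on 0 arrays. The test took probes with that flag on 3 or more of the arrays, counted over both groups, which kept 36 members. Besides the 5 members named, Cdc6 (1 AD array, 0 Sham arrays), Rrm1 (1 AD array, 1 Sham array) and Aurkb (1 AD array, 0 Sham arrays) were left out. Of the 36, Cdt1 passed only through the AD arrays (3 AD arrays, 0 Sham arrays), so its difference is partly set by that choice. The 75th percentile used for scaling lay between 795 and 932 for the AD arrays and between 429 and 755 for the Sham arrays, lowest on Sham replicate 3, which was scanned on another day than the rest. Over all tested probes, pairs of Sham arrays correlated at 0.979 to 0.993 and pairs of AD arrays at 0.988 to 0.994. Pairs of an AD and a Sham array, at 0.976 to 0.987, overlapped the range of the Sham pairs. The number of arrays limits the precision.

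More members were lower than higher in the AD hippocampus. Of the 36 tested, 8 fell, 1 rose and 27 did not pass limma's test at an adjusted p under 0.05, where 12.6% of all 22768 tested probes passed in either direction. The 8 that fell make 22.2% of the members, where 8.40% of all probes fell. The 1 that rose makes 2.78%, where 4.15% of all probes rose. The 8 were Ccna2, Rrm2, Cdca3, Birc5, Cks2, Kif11, Mcm4 and Ccne1, and the 1 was Mcm2. The median log2 change of the 36 was -0.24 (-0.27 without Cdt1), against -0.01 over all tested probes, and 22 of 36 (61.1%) were below 0, against 51.3% of all probes. All 3 AD values lay below all 3 Sham values for 15 members (41.7%), against 23.4% of all probes, and above them for 5 members, against 15.6% of all probes. In either direction 39.0% of all probes had groups that did not overlap. Among the 31 members well above background on all arrays, 8 fell and 1 rose. In bulk tissue, fewer cells of a type and less RNA per cell cannot be told apart.

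**Figure D1:**
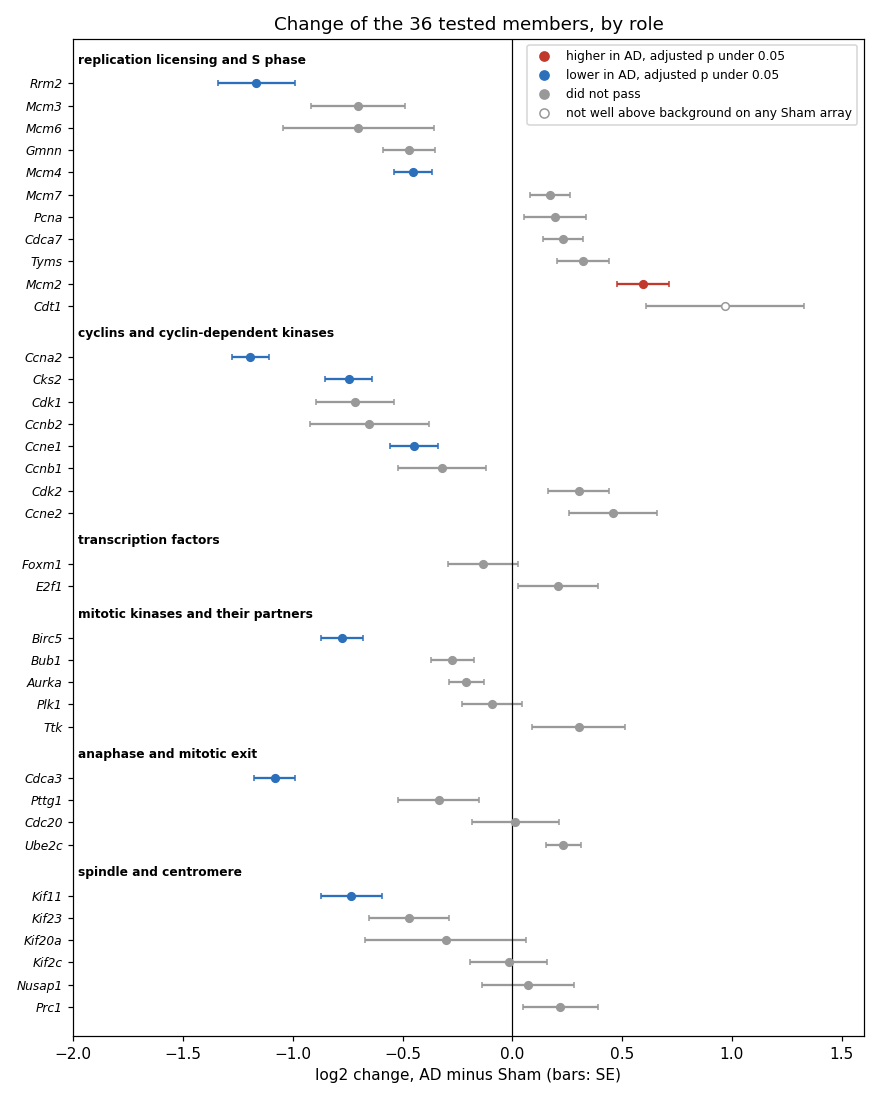
Log2 change (AD minus Sham, horizontal axis, bars are SE) of the 36 tested members, grouped by role and ordered by change within each role. The 8 blue members fell, Mcm2 in red rose and the 27 grey members did not pass, and members below 0 outnumber those above 0 by 22 to 14. The open point is Cdt1, which was not well above background on any Sham array.

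The genes of replication licensing and S phase went both ways. Of 11 tested, 2 fell and 1 rose. The median log2 change was 0.17 with Cdt1, which was tested only through its AD arrays, and -0.14 over the other 10. Rrm2, the small subunit of ribonucleotide reductase, which makes deoxynucleotides for DNA synthesis, had levels of -1.36, -1.55 and -1.75 in AD and -0.28, -0.18 and -0.71 in Sham. The groups did not overlap, and the log2 change was -1.17 ± 0.17 (SE, n = 3 per group, limma adjusted p = 0.0212). A second Rrm2 probe was above background on 0 arrays. Mcm4, a helicase subunit, had 1.08, 1.19 and 1.18 in AD and 1.54, 1.57 and 1.70 in Sham, a log2 change of -0.45 ± 0.09 (adjusted p = 0.0317). Its 2 probes disagreed. The second probe, also well above background on all arrays, had a log2 change of 0.45 ± 0.23 that did not pass (adjusted p = 0.240), so the fall of Mcm4 belongs to 1 probe.

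Mcm2, another subunit of the same helicase, had -3.09, -3.05 and -3.07 in AD and -3.45, -3.71 and -3.84 in Sham. The 3 AD arrays were nearly alike and all above the Sham arrays, and the log2 change was 0.60 ± 0.12 (adjusted p = 0.0326). Under normexp background correction, which treats dim probes differently, it was 0.12 and did not pass. A second Mcm2 probe, well above background on 1 AD array and 1 Sham array, was not tested. The other helicase subunits did not pass. Mcm3 had -2.0, -1.87 and -2.33 in AD and -1.08, -1.24 and -1.77 in Sham, with a log2 change of -0.70 ± 0.22 (adjusted p = 0.0823). Mcm6, flagged above background on 2 arrays of each group, had a log2 change of -0.70 ± 0.34 (adjusted p = 0.220). Mcm7 had 1.05, 1.09 and 0.91 in AD and 0.91, 0.80 and 0.84 in Sham, with a log2 change of 0.17 ± 0.09 (adjusted p = 0.255). The helicase subunits, which work as one ring, thus had fitted changes on both sides of 0 on these probes.

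The remaining S phase members did not pass. Pcna, the sliding clamp of the replication fork and a common proliferation mark, had 1.5, 1.89 and 1.45 in AD and 1.31, 1.47 and 1.48 in Sham. The ranges overlapped, and the log2 change was 0.19 ± 0.14 (adjusted p = 0.397). Gmnn encodes geminin, the inhibitor of the licensing factor Cdt1, and had -2.67, -2.65 and -2.69 in AD and -2.09, -2.08 and -2.43 in Sham. All AD values lay below the Sham values, and its log2 change of -0.47 ± 0.12 lay just beyond the threshold (adjusted p = 0.0523). Cdt1 itself had -5.59, -5.49 and -6.26 in AD and -7.26, -6.94 and -6.04 in Sham. No Sham array measured it well above background, so its level there is only a bound and no fold is given, and it did not pass (limma adjusted p = 0.129). Tyms, which makes thymidylate, had a log2 change of 0.32 ± 0.12 (adjusted p = 0.122). Cdca7, a chromatin factor that E2F switches on, had 0.23 ± 0.09 (adjusted p = 0.149). Tyms and Cdca7 were higher on all 3 AD arrays than on any Sham array, as were 15.6% of all probes. Under normexp Tyms was at 0.02 and Cdca7 at -0.24, where the median of all probes was -0.15.

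**Figure D2:**
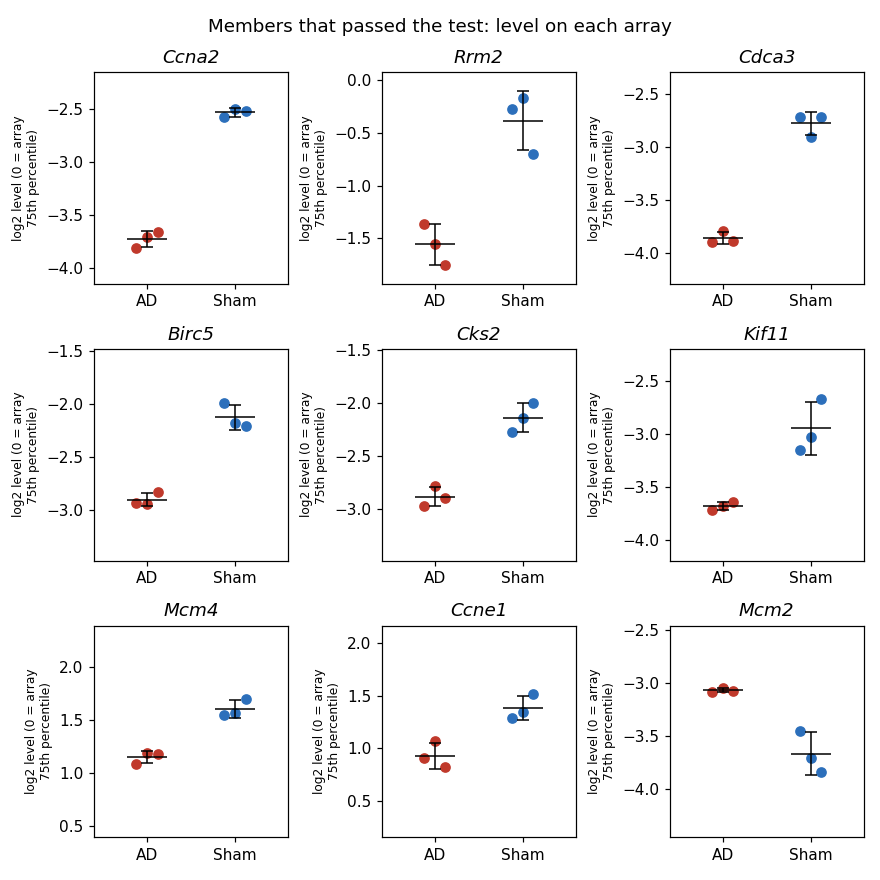
Level on each array (log2, 0 is the array's 75th percentile) of the 9 members that passed, AD in red on the left and Sham in blue on the right, with the mean and SD of each group. The vertical range is the same in all panels, and the 3 AD values lie apart from the 3 Sham values in each, above them for Mcm2 and below them for the other 8. The genes shown were picked for passing, which favours such a gap. Over all tested probes the AD values lay above the Sham values in 15.6% and below them in 23.4%.

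Among the cyclins and their kinases, 3 of 8 tested members fell and 0 rose, with a median log2 change of -0.55. Ccna2 encodes cyclin A2, the partner of Cdk2 in S phase and of Cdk1 in G2, and had -3.81, -3.71 and -3.66 in AD and -2.57, -2.50 and -2.52 in Sham. The log2 change was -1.19 ± 0.08 (adjusted p = 0.0183), or 2.29-fold. A second Ccna2 probe fell as well, with a log2 change of -0.79 ± 0.10 (adjusted p = 0.0196). Cks2, a small subunit that binds cyclin-dependent kinases, had -2.96, -2.78 and -2.90 in AD and -2.27, -2.14 and -1.99 in Sham. Its log2 change was -0.75 ± 0.11 (adjusted p = 0.0205). Ccne1 encodes cyclin E1, which acts with Cdk2 at the entry into S phase, and had 0.91, 1.07 and 0.82 in AD and 1.29, 1.34 and 1.51 in Sham. Its change was smaller, -0.45 ± 0.11 on the log2 scale, and its adjusted p of 0.0480 lay close to the threshold.

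Cdk1, the kinase that starts mitosis, had -3.31, -3.22 and -3.43 in AD and -2.22, -2.77 and -2.81 in Sham. The groups did not overlap, but Sham replicate 1 stood above the other Sham arrays, and the log2 change was -0.72 ± 0.18 (adjusted p = 0.0509), just beyond the threshold. The mitotic cyclins overlapped between the groups. Ccnb1 had a log2 change of -0.32 ± 0.20 (adjusted p = 0.325). Ccnb2, flagged above background on 1 AD array and 2 Sham arrays, had -0.65 ± 0.27 (adjusted p = 0.164). The values of Cdk2 and Ccne2, the second cyclin E, ran the other way without passing, at 0.30 ± 0.14 (adjusted p = 0.199) and 0.46 ± 0.20 (adjusted p = 0.182).

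The 2 transcription factors on the list did not pass. E2f1 had -1.16, -1.30 and -1.0 in AD and -1.47, -1.62 and -1.0 in Sham, with a log2 change of 0.21 ± 0.18 (adjusted p = 0.474). Foxm1 had -2.44, -2.43 and -2.38 in AD and -1.97, -2.30 and -2.58 in Sham, with a log2 change of -0.14 ± 0.16 (adjusted p = 0.601). The ranges of both genes overlapped between the groups.

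Of the mitotic kinases and their partners, 1 of 5 tested members fell. Birc5 encodes survivin, the subunit that brings Aurora B to the centromere, and had -2.93, -2.94 and -2.83 in AD and -1.99, -2.18 and -2.21 in Sham. Its log2 change was -0.78 ± 0.10 (adjusted p = 0.0188). Aurora B itself (Aurkb) was not tested. The spindle checkpoint kinase Bub1, at -0.27 ± 0.10 (adjusted p = 0.118), and Aurka, the kinase of the spindle poles, at -0.21 ± 0.08 (adjusted p = 0.136), had AD values below all Sham values without passing. Over all tested probes 23.4% had AD values below all Sham values. Plk1, a kinase of mitotic entry, had a log2 change of -0.09 ± 0.14 (adjusted p = 0.676), and the checkpoint kinase Ttk had 0.30 ± 0.21 (adjusted p = 0.377).

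Of the 4 genes listed under anaphase and mitotic exit, 1 fell, and its described role is in mitotic entry. Cdca3, part of a ubiquitin ligase that triggers mitotic entry by removing Wee1, had -3.90, -3.80 and -3.89 in AD and -2.72, -2.90 and -2.72 in Sham. Its log2 change was -1.08 ± 0.09 (adjusted p = 0.0183), or 2.12-fold. The partners of the anaphase-promoting complex did not pass. Cdc20, its activator, had 1.71, 1.71 and 1.85 in AD and 1.70, 1.39 and 2.15 in Sham, with a log2 change of 0.01 ± 0.20 (adjusted p = 0.969). The Sham arrays spread around the AD arrays on both sides. Ube2c, its ubiquitin-conjugating enzyme, had -4.00, -4.01 and -4.00 in AD and -4.16, -4.25 and -4.29 in Sham, with a log2 change of 0.23 ± 0.08 (adjusted p = 0.110). Pttg1, the securin that the complex removes, had -0.34 ± 0.18 (adjusted p = 0.269).

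Of 6 tested genes of the spindle and centromere, 1 fell. Kif11, the kinesin that pushes the spindle poles apart, had -3.71, -3.68 and -3.64 in AD and -3.14, -3.02 and -2.67 in Sham. The log2 change was -0.73 ± 0.14 (adjusted p = 0.0291). Of the other kinesins, Kif23, which acts in cytokinesis, had -0.47 ± 0.18 (adjusted p = 0.143) with groups that did not overlap. Kif20a had -0.30 ± 0.37 (adjusted p = 0.610), with Sham values between -4.32 and -2.86. Kif2c, above background on 2 arrays of each group, had -0.02 ± 0.17 (adjusted p = 0.958). Prc1, which bundles the microtubules of the spindle midzone, had a log2 change of 0.22 ± 0.17 on its brighter probe (adjusted p = 0.424) and of -0.68 ± 0.15 on the other (adjusted p = 0.0367). The 2 probes differed in direction, and the dimmer one had that flag on 2 AD and 3 Sham arrays. Nusap1, a microtubule-binding protein of the spindle, had 0.07 ± 0.21 (adjusted p = 0.844).

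Other genes of the same machinery were read from 6 lists with 133 genes, of which 91 were tested. Of these, 10 fell (11%) and 2 rose (2.20%), near the 8.40% and 4.15% of all probes. The 10 lay in 3 lists. Among 26 other replication genes 5 fell and 0 rose, among 28 other mitosis genes 4 fell and 0 rose, and among 12 genes of p53 and its targets 1 fell and 0 rose. Fen1, the nuclease that trims Okazaki fragments, had 0.68, 0.71 and 0.65 in AD and 1.41, 1.37 and 1.55 in Sham, a log2 change of -0.76 ± 0.09 (adjusted p = 0.0183). Prim2, a primase subunit, had -0.60 ± 0.10 (adjusted p = 0.0254). Rfc3 of the clamp loader had -0.49 ± 0.08 (adjusted p = 0.0217), Chaf1b of the histone chaperone CAF-1 had -0.41 ± 0.08 (adjusted p = 0.0320), and the helicase partner Cdc45 had -0.70 ± 0.16 (adjusted p = 0.0452). All 5 had AD values below every Sham value, as had 23.4% of all probes, but they were picked for passing, which favours such a gap.

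The 4 mitosis genes that fell were Ckap2, Spc25, Aspm and Kif22. Ckap2, a microtubule-binding protein, had -3.52, -3.49 and -3.56 in AD and -2.62, -2.64 and -2.86 in Sham, a log2 change of -0.82 ± 0.10 (adjusted p = 0.0183), and its other probe fell as well (-0.57, adjusted p = 0.0326). Spc25, a kinetochore subunit, had -0.72 ± 0.10 (adjusted p = 0.0197). Aspm, a spindle pole protein known for its part in brain size, had -0.70 ± 0.10 (adjusted p = 0.0205), and the chromosome-binding kinesin Kif22 had -0.62 ± 0.15 (adjusted p = 0.0461). Zmat3, a zinc finger gene that p53 switches on, fell by 0.46 ± 0.11 on the log2 scale (adjusted p = 0.0442), while its other probe had -0.08 (adjusted p = 0.638).

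Genes that act in G1 were read in the same way. Among 10 G1 cyclins, their kinases and E2F factors 1 rose and 0 fell, with a median log2 change of 0.23. A second probe of E2f3 fell (-0.42, adjusted p = 0.0359), where the probe read had -0.30 (adjusted p = 0.110). Ccnd3, cyclin D3, had -1.02, -1.10 and -1.03 in AD and -1.77, -1.47 and -1.81 in Sham, a log2 change of 0.64 ± 0.12 (adjusted p = 0.0276). Among 10 cyclin-dependent kinase inhibitors and pocket proteins 1 rose and 0 fell, with a median of 0.24. It was Cdkn2c, an inhibitor of the cyclin D kinases, with -3.34, -3.34 and -3.29 in AD and -3.80, -3.76 and -3.63 in Sham, a log2 change of 0.41 ± 0.09 (adjusted p = 0.0360) that was -0.01 under normexp background correction. Among 5 genes of MuvB and Myb 0 passed, with a median of -0.21. Of the 5 values 4 were below 0, against 51.3% of all probes. In 3 of 5 every AD value lay below every Sham value, against 23.4% of all probes. The largest change in size was that of Mybl1 (0.43 ± 0.16, adjusted p = 0.126), above background on 2 AD arrays and 1 Sham array and at -0.24 under normexp. The difference between the G1 lists and the replication and mitosis lists was not tested.

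**Figure D3:**
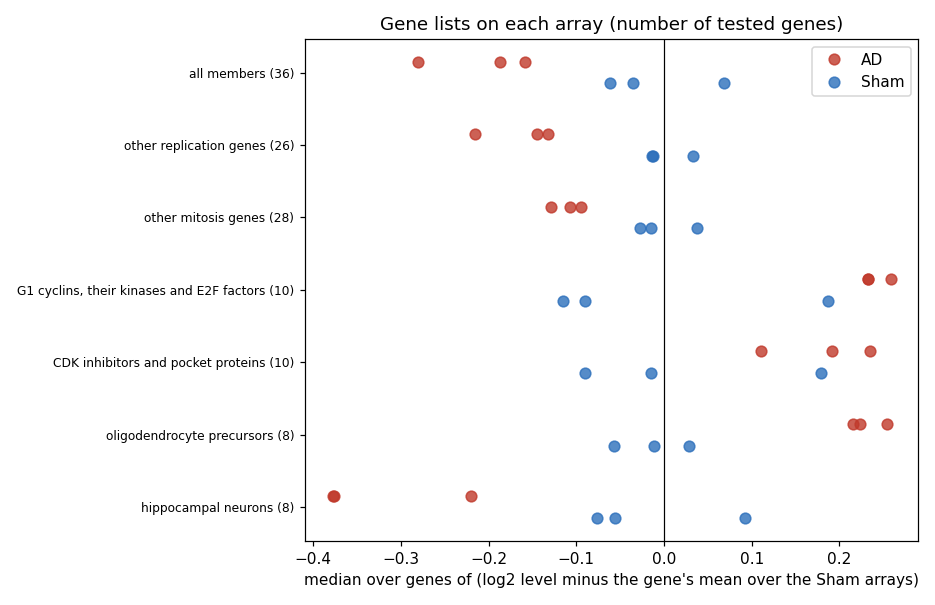
Median over the tested genes of a list of the log2 level minus the gene's mean over the Sham arrays (horizontal axis), 1 point per array, AD in red above Sham in blue, with the number of genes in brackets. The members, the other replication and the other mitosis genes lie below 0 on the 3 AD arrays, the G1 genes, inhibitors and oligodendrocyte precursor markers above 0 and the neuron markers below 0. For the inhibitors Sham replicate 3 lies within the range of the AD arrays.

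Markers of cell types that divide, or that can enter a dissection, were read beside the members. All 8 neuron markers with a probe were well above background on all 6 arrays, as the tissue label calls for, while Rbfox3 had no matched probe. Of these 8, 0 rose and 2 fell (Gad1 and Syt1), and the log2 of the summed level was 5.69 to 5.85 in AD and 6.06 to 6.19 in Sham. A summed level mostly follows the brightest genes of its list. Of 9 markers of neural progenitors and immature neurons 1 rose (Hes5) and 0 fell, at 2.16 to 2.34 in AD and 1.92 to 2.18 in Sham, and a second probe of Sox2 rose (0.59, adjusted p = 0.025). Hes5 lay close to the threshold (0.87 ± 0.21, adjusted p = 0.0496) and was well above background on only 2 of the Sham arrays. Within that list Dcx, a marker of young neurons, had a log2 change of -0.86 (adjusted p = 0.0573). Of 8 markers of oligodendrocyte precursors 2 rose (Olig1 and C1ql1) and 0 fell, at 4.31 to 4.33 in AD and 4.01 to 4.12 in Sham. The summed levels of the precursor list were higher on all 3 AD arrays than on any Sham array. Within it Cspg4 had a log2 change of -0.43 (adjusted p = 0.187), and Sox10 and Gpr17 overlapped between the groups. Those of the neuron list were lower on all 3 AD arrays than on any Sham array, and those of the progenitor list overlapped.

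Of 8 microglia and 6 astrocyte markers 0 passed in either direction, with summed levels of 4.46 to 4.76 in AD and 4.81 to 4.87 in Sham for microglia and 6.70 to 6.95 in AD and 6.99 to 7.16 in Sham for astrocytes. Both summed levels were lower on all 3 AD arrays than on any Sham array. Of the single changes, 4 of 8 microglia markers and 4 of 6 astrocyte markers were below 0. Gfap ran the other way without passing (0.95 ± 0.43, adjusted p = 0.188), with all AD values above the Sham values. A second probe of the astrocyte transporter Slc1a3 fell (-0.44, adjusted p = 0.0284), and another probe of Aqp4 had 0.54 (adjusted p = 0.132). Of 11 endothelial and pericyte markers 3 rose and 0 fell (3.25 to 3.34 in AD, 3.16 to 3.30 in Sham). Of 9 markers of erythroid and neutrophil precursors 0 rose and 2 fell, S100a8 and S100a9 (2.82 to 3.81 in AD, 3.62 to 6.11 in Sham). The haemoglobin probes in that sum disagreed with the other probes of their genes, Hba-a1 at -1.25 on the probe read and 1.65 on the other (adjusted p = 0.0381), and Hbb at -2.59 and 1.26, of which only the second Hba-a1 probe passed. Of 6 lymphocyte markers 1 rose and 0 fell. It was Cd3e, which was tested only through its AD arrays, being well above background on 0 Sham arrays (summed levels of the list -0.26 to -0.16 in AD, -0.36 to -0.27 in Sham). Of 9 choroid plexus markers 0 passed, although all 9 changes were above 0 (6.36 to 7.17 in AD, 4.78 to 6.69 in Sham). That sum mostly follows Ttr (4.74, 5.83 and 6.66 in Sham), and the median log2 change of the 9 was 2.27. Of 6 skeletal muscle markers 1 rose and 0 fell. Their summed levels were -0.70, -1.04 and 1.78 on AD replicates 1, 2 and 3 and -2.58 to -2.45 in Sham. Tnnt3 and Myh4 of that list were well above background on 0 Sham arrays, so they were tested only through AD. Of 4 bone markers 2 rose and 0 fell (0.22 to 0.68 in AD, -0.36 to 1.15 in Sham). In Sham that sum mostly follows Col1a1 (1.06, 0.88 and -0.70), which did not pass. The 2 that rose were Bglap, with a log2 change of 4.56, and Ibsp. Bglap was well above background on 1 Sham array. Ibsp was well above background on 0 Sham arrays, so that it too was tested only through AD. The part of these lists in the changes of the members was not tested.

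Many of the calls did not hold under other settings. The signs of the members that fell did, but many of the settings could not have changed them. The AD and Sham values of these 8 members did not overlap, so leaving out an array could not reverse the sign. Blocking by replicate number or slide position and the methods' t-test keep the same difference of group means. The 8 members that fell stayed below 0 under all 21 alternatives, but 0 of them passed under 8 alternatives. These were leaving out any of AD replicates 1, 2 and 3 or Sham replicates 1 and 2, and blocking by replicate number, by slide position or by scan. Across all probes limma then called 0 probes lower as well. At an unadjusted p under 0.05, 14 members (38.9%) were lower in the comparison as reported, against 18.6% of all probes. Over the alternatives this count ran between 9 members with scan as a random block (25.0%, against 10.8% of all probes) and 18 of 36 with normexp (against 21.3% of all probes). Without Sham replicate 3, the array of the other scan day, 10 members were lower (27.8%, against 10.8% of all probes) and 2 higher (5.56%, against 8.78%). The AD arrays were scanned together and no scan held both groups, so scan and group cannot be told apart. Ccna2 and Cdca3 passed under 13 of 21 alternatives, Rrm2 and Birc5 under 12, Cks2 under 11, Kif11, Mcm4 and Mcm2 under 9, and Ccne1 under 3. Scan day as a block gives the same fit as leaving out Sham replicate 3, so the 21 alternatives are not all separate checks.

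**Figure D4:**
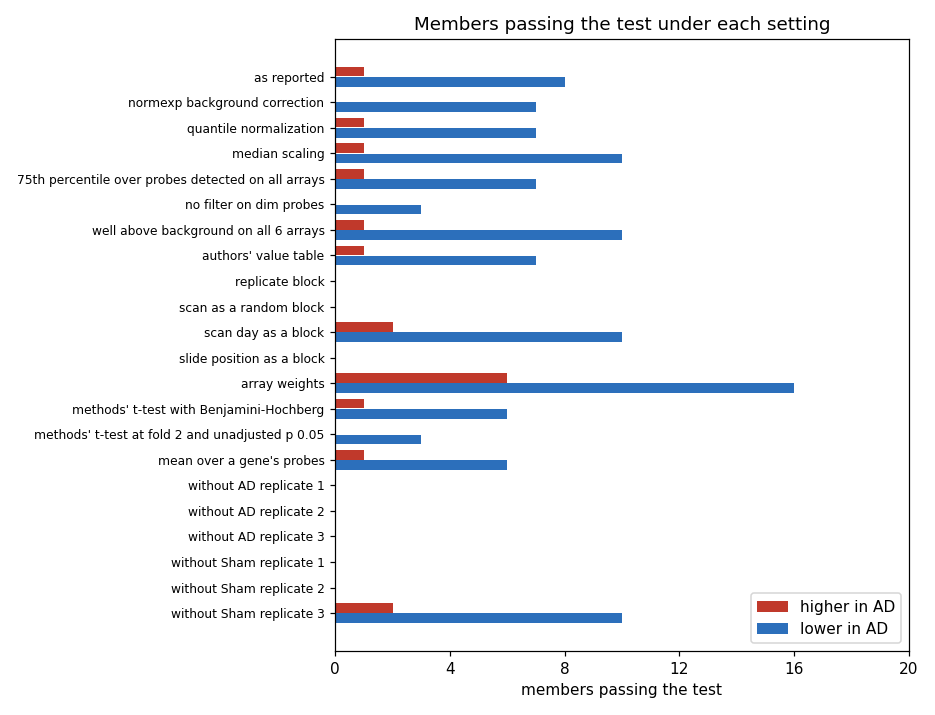
Number of members passing the test (horizontal axis), higher in AD in red above lower in AD in blue, as reported (first row, 1 higher and 8 lower) and under each of the 21 alternatives. The 8 alternatives with no bar left 0 members passing in either direction.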

How the data were processed

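Hippocampal mRNA was measured on 6 single-colour Agilent arrays, 3 AD and 3 Sham, with groups taken from the sample labels. The deposited scanner files hold intensity values per spot, background-subtracted by the authors with Agilent Feature Extraction 11.0.1.1 per the labels. The authors also deposited log2 values of unstated scaling (median 6.56 in every column). The columns of that table for AD replicates 2 and 3 were exchanged relative to the scanner files, which leaves the group comparison as it is.

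Control spots and flagged outlier spots were left out, spots of a probe averaged, and log2 processed signals scaled to each array's 75th percentile. Of 26997 accessions, 15252 matched RefSeq symbols (GRCr8). AD was set against Sham by limma 3.58.1 (lmFit, eBayes; R 4.3.3, statmod 1.5.0) with no covariates. P-values are two-sided, adjusted by Benjamini-Hochberg over the 22768 probes in the test, and called under 0.05. The fit was tested on simulated data. Normexp correction (offset 50) used the median spot signal and the local background, since no mean signal column was used here.

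The members and lists were chosen with earlier results of these data known. The naming rule took the members that passed, the 5 with the brightest probes, Mki67, Top2a, Cdk1, Pcna, E2f1 and Foxm1, and of each related list up to 4 genes that passed (or the largest change). The other members, Cdc45, Dcx, E2f3 and the markers were added after their values were seen. Alternatives changed the background correction, the scaling, the filter on dim probes, the value table, blocks, array weights, the test, the probe of a gene and the arrays left out.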

Additional observations from a re-analysis of the deposited data

How the results depend on the processing

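The 8 falling members and Mcm2 kept their direction under all 21 alternatives, Mcm4 only at -0.00 with the mean over a gene's probes. Their groups did not overlap, so many of these settings could not have changed the sign. Counts of calls moved more, and the cause was not tested. Over all probes 946 were higher and 1912 lower as reported. The counts were 307 higher and 1456 lower with normexp, 688 and 2148 with median scaling, 1422 and 1249 with the 75th percentile over detected probes, and 99 and 253 with no filter on dim probes. They were 1998 and 2470 with scan day as a block, 4552 and 5320 with array weights, 580 and 1268 with the methods' t-test after Benjamini-Hochberg adjustment and 174 and 153 with that test at a fold of 2 and an unadjusted threshold. The replicate block, slide position as a block and scan as a random block gave 0 calls of probes, members and related genes in both directions, with 12, 12 and 9 members lower at an unadjusted p under 0.05. Deviations of same-numbered arrays correlated at 0.03, 0.07 and 0.14, so the numbers were not taken as pairs.

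For the members, no filter on dim probes gave 0 higher and 3 lower, the methods' t-test at a fold of 2 gave 0 and 3, normexp 0 and 7, scan day as a block 2 and 10 and array weights 6 and 16. For the related genes the counts higher and lower were 1 and 8 with normexp, 1 and 12 with median scaling, 0 and 2 with no filter, 8 and 13 with scan day as a block, 13 and 26 with array weights, 1 and 9 with the adjusted t-test and 0 and 0 with the t-test at a fold of 2. The median change of the members was -0.16 with the 75th percentile over detected probes, where the median of all probes was 0.07. It was -0.14 with no filter, where the median of all probes was -0.04 and the members left out of the test for dim probes were counted too. Leaving out 1 array gave 0 to 1998 probes higher and 0 to 2470 lower, 0 to 2 members higher and 0 to 10 lower, 0 to 8 related genes higher and 0 to 13 lower, and a member median of -0.26 to -0.17. Each highest count of calls came without Sham replicate 3. Without AD replicate 3 limma called 2 probes, both higher, and without AD replicate 1, AD replicate 2, Sham replicate 1 or Sham replicate 2 it called 0.

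Reversals of sign were confined to genes that had not passed, apart from Cdkn2c. Normexp shifted the median of all probes to -0.15. Under it Cdt1 was at -0.23, Cdca7 at -0.24, Ccne2 at -0.19, Ttk at -0.0456, Cdc20 at -0.0233, Ube2c at -0.18, Nusap1 at -0.23, Prc1 at -0.10, Mybl1 at -0.24 and Cdkn2c at -0.0092. Relative to that shift Ttk (0.10), Cdc20 (0.12), Prc1 (0.04) and Cdkn2c (0.14) lay above 0, and Mcm2 was at 0.27. Cdc20 was at -0.0368 with median scaling and at -0.0427 with scan as a random block. Kif2c was at 0.066 with the 75th percentile over detected probes, at 0.00018 with scan day as a block and at 0.074 with the mean over probes. Nusap1 was at -0.0809 with scan day as a block and Prc1 at -0.23 with the mean over probes. Leaving out 1 array gave -0.28 to 0.0202 for Foxm1, -0.16 to 0.22 for Cdc20, -0.0809 to 0.29 for Nusap1, -0.65 to 0.0824 for Kif20a and -0.15 to 0.11 for Kif2c.

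With 3 arrays per group the spread between arrays limits every value. Among tested members, Cdt1, Mcm6, Ccnb2, Ccne2 and Kif2c were not well above background on all arrays, and 14 members gave no test.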
